A study of Rattus norvegicus with 6 samples.

Results

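The data on rno-miR-184 are 1 row of a table of 910 miRNA names, chosen by its name and read in all 6 small RNA libraries. The libraries came from the capsular membrane of the lens of Sprague Dawley rats, 1 lens from each of 6 animals, and each lens gave its own library. The control group (n = 3) received saline under the skin of the neck. The Na2SeO3 group (n = 3) received sodium selenite there at 20 μmol/kg on days 3, 5, and 7, a dose that clouds the lens of young rats, and pups had entered the experiment at 8 days of age. Lenses were taken on day 15, so each group was seen at 1 time point only. The capsular membrane is the basement membrane of the lens together with the epithelium that adheres to it, and each library holds the RNA of all cells in that piece of tissue.

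A miRNA is a short RNA cut from a hairpin precursor and held by an Argonaute protein, which it guides to mRNAs whose sequence pairs with its seed, bases 2 to 8. miR-184 is a deeply conserved miRNA that is known as one of the main miRNAs of the lens and of the corneal epithelium. A change in the seed of the human gene is known to cause an inherited keratoconus with early cataract. In surface epithelium miR-184 is also known to interfere with miR-205, another epithelial miRNA, which represses the lipid phosphatase SHIP2.

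The sequences of rno-miR-184 and its precursor are shown first because the counts rest on reads of this sequence. They were taken from the RefSeq miRNA table of assembly GRCr8, in which 296 of the 326 rat names tested had a mature sequence. The mature miRNA is on the 3′ side of the 77-base hairpin of Mir184 at chr8:99222982-99223058 on the minus strand of GRCr8. The build behind the count table is not given in the sources used here, so these coordinates are not those of the counts. No annotated gene overlaps Mir184 in GRCr8, where its flanking genes are Ankrd34c and Rasgrf1. In the hairpin the mature sequence, bases 47 to 68, is in capitals, and in the mature sequences of miR-184 and of the epithelial miRNAs compared with it later the capitals mark the seed.
Mir184 hairpin: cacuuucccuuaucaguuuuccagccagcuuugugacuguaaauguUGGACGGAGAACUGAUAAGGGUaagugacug
rno-miR-184: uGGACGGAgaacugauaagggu
rno-miR-205: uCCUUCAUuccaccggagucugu
rno-miR-203a-3p: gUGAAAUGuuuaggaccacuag
rno-miR-200c-3p: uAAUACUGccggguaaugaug

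The 4 mature sequences have different seeds. None of the other 692 mature names in the RefSeq table shared the seed of miR-184, and rno-miR-149-3p was the only one that shared its bases 2 to 7. The mature name closest to it over the whole length was rno-miR-483-5p, at an edit distance of 8 bases, so the RefSeq table held no near-identical copy. Counted names without a sequence there, such as those of other species, were not compared. RNAfold paired 19 of the 22 mature bases with the opposite arm, at a predicted free energy of -40.5 kcal/mol. Mir184 has 1 annotated mature product, and the count table likewise lists miR-184 under 1 name without an arm, so the 5′ arm could not be followed here.

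The depth, as the sum of counts over all names, was 1806596 to 2829903 in the control libraries and 663096 to 968151 in the Na2SeO3 libraries. A count of 3, the upper limit that a count of 0 allows, equals at most 4.52 CPM (counts per 1000000 counted reads), far below the level of miR-184. Intervals given for single libraries account for counting error alone. The sources used here do not say whether PCR copies were marked by molecular identifiers.

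The reads of miR-184 numbered 213854, 165727, and 131020 in the control libraries (replicates 1 to 3) and 28072, 39702, and 31679 in the Na2SeO3 libraries (replicates 1 to 3). As a share of all counted reads it took 7.56% (95% exact binomial interval 7.53 to 7.59), 7.98% (7.95 to 8.02), and 7.25% (7.21 to 7.29) in the control libraries. In the Na2SeO3 libraries the shares were 4.23% (4.19 to 4.28), 4.10% (4.06 to 4.14), and 3.61% (3.57 to 3.65). All 3 control libraries were above all 3 Na2SeO3 libraries, and the counting error of each share was small beside the distance between the groups. The control group had a mean share of 7.60% ± 0.37 (SD, n = 3) and the Na2SeO3 group one of 3.98% ± 0.33 (SD, n = 3), a difference of -3.62 percentage points (two-sided exact permutation test, p = 0.1, below which a design of 3 and 3 libraries cannot go). In other words, 1 in 12.5 to 13.8 counted reads was miR-184 in the control libraries and 1 in 23.6 to 27.7 in the Na2SeO3 libraries.

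**Figure D1:**
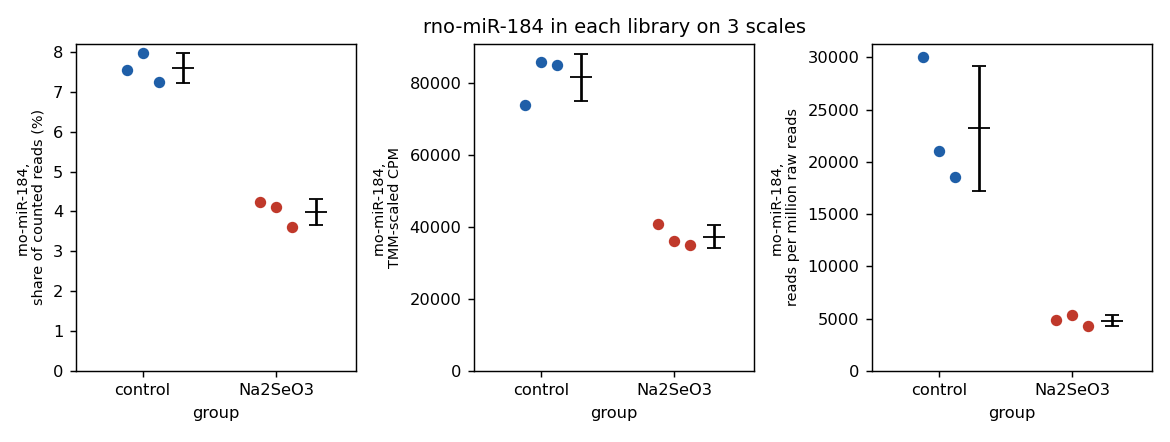
Level of rno-miR-184 in each of the 6 libraries as a share of counted reads (%), as TMM-scaled CPM, and per 1000000 raw reads, with 1 point per library and the group mean with its SD (n = 3) as a black bar. On each of the 3 scales the control points lie above the Na2SeO3 points, and the control points spread most on the raw-read scale.

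By rank, miR-184 was the 3rd most counted name in control library 1 and the 4th in control libraries 2 and 3, and it was 6th, 6th, and 7th in the Na2SeO3 libraries. A miRNA read covers the whole mature molecule, so shares of different miRNAs were not divided by length. In the control group its level overlapped that of rno-miR-182, a miRNA of sensory cells, which took 7.14% to 9.13% of the reads, and the order of these neighbours was therefore not resolved. Above both stood rno-miR-148a-3p, at 19.0% to 22.3%, and rno-miR-99a-5p, at 14.2% to 16.6%, while rno-miR-96-5p followed below at 3.39% to 4.87%. In the Na2SeO3 group rno-miR-182 (10.5% to 11.4%) and rno-miR-183-5p (4.42% to 4.79%) were above miR-184 in every library. rno-miR-26a-5p (3.12% to 3.68%) was below it within each library, although the ranges over libraries overlapped. The order against rno-miR-96-5p (3.91% to 6.26%) and rno-miR-9a-5p (3.52% to 4.40%) differed between libraries.

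In percentage points of the counted reads, miR-184 lost more than any other of the 910 names. Summed over the 257 names with a lower mean share in the Na2SeO3 group the loss was -11.4 points, and miR-184 made up 31.7% of it. The next were rno-miR-148a-3p with -2.54 points and rno-miR-99a-5p with -1.90 points, both with overlapping shares in the groups. The largest gain in points was that of rno-miR-182, with 2.73. Shares within a library sum to a fixed total, so a loss of 1 abundant name raises the shares of the others.

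Whether the level of miR-184 differed between the groups was tested with edgeR's quasi-likelihood test over all 341 names with enough reads, after TMM scaling, which sets library sizes so that most names do not change. A name was called where its adjusted p-value was under 0.05 and its log2 fold change beyond 1 in size. The TMM-scaled values of the controls were 73873, 85716, and 84788 CPM (replicates 1 to 3), and those after Na2SeO3 were 40877, 36042, and 34844 CPM. On this scale too the groups did not overlap, as was so with lower Na2SeO3 values for 21.1% of the names tested. miR-184 fell, and its log2 fold change was -1.13 (SE 0.13, 95% interval -1.40 to -0.86, adjusted p = 3.48e-05), which is 2.19-fold lower in the Na2SeO3 group. It was 1 of 17 names called lower, 4.99% of the names tested, beside 39 called higher (11.4%). Tested against a log2 fold change of 1 instead of 0 with edgeR's glmTreat, miR-184 did not pass (adjusted p = 0.565), so the fall was larger than the replicate error but was not shown to exceed a log2 fold change of 1.

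The size of the fall depended on what the reads of a library were set against. With library size only, the log2 fold change was -0.93 (95% interval -1.18 to -0.68, adjusted p = 7.19e-05), which is short of the fold change threshold, and 2.93% of all names were called lower on that scale. Per 1000000 raw reads, miR-184 took 30001, 21027, and 18567 reads in the controls (replicates 1 to 3) and 4846, 5342, and 4244 reads after Na2SeO3 (replicates 1 to 3), with the numbers of raw reads taken from the study's description of its libraries. On the raw-read scale the log2 fold change was -2.27 (95% interval -2.80 to -1.74, adjusted p = 5.17e-14, edgeR), or 4.82-fold lower, and 51.6% of all names were called lower there. The share of raw reads that was counted on any miRNA name moved in the same direction, at 25.6% to 39.7% in the control libraries and 11.4% to 13.0% in the Na2SeO3 libraries, and its part in the raw-read result was not tested. Set against the median of all names tested, which was 0.08 with TMM, 0.27 with library size, and -1.07 with raw reads, miR-184 lay at -1.21, -1.20, and -1.20 on the log2 scale in the same order. A change of scaling shifts all names nearly alike, so this distance could hardly differ between the scalings.

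**Figure D2:**
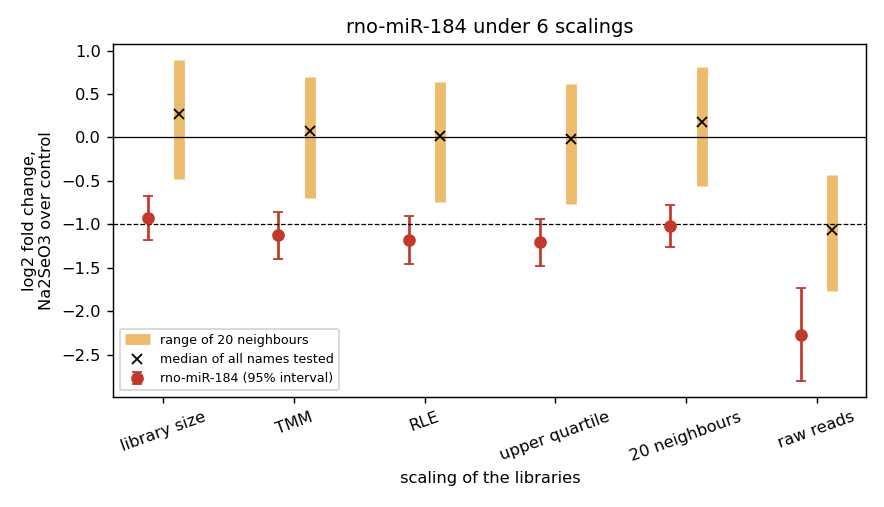
Log2 fold change (Na2SeO3 over control) of rno-miR-184 under 6 scalings of the libraries, with its 95% interval (red), beside the range of its 20 abundance neighbours (orange bar) and the median of all 341 names tested (cross). The red point lies below the orange bar in each scaling, from -0.93 with library size to -2.27 with raw reads, and the dashed line marks the fold change threshold of -1. A scaling shifts all names nearly alike, so the order of point and bar could hardly differ between scalings.

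To see miR-184 against miRNAs of similar abundance, the 20 names tested with the nearest mean log2 CPM were taken as its abundance neighbours. Their mean log2 CPM ranged from 12.8 to 17.5, against 15.9 for miR-184, since few names are so abundant. None of the 20 was called in either direction by edgeR's quasi-likelihood test, where 4.99% of all names were called lower and 11.4% higher. None was called by DESeq2, which called 16 of all 341 names lower and 30 higher. Nor was any called by limma voom, which called 18 of all 341 names lower and 37 higher. At an unadjusted p-value of 0.05 without the fold change threshold, 8 were lower and 2 higher, against 18.8% and 25.5% of all names, and at an adjusted p-value of 0.05 the numbers were 6 and 2, where 13.8% and 20.8% of all names passed in these directions. Their median log2 fold change was -0.12, against 0.08 over all names tested, and they ranged from -0.69 for rno-miR-7a-5p to 0.69 for rno-miR-1-3p, so that miR-184 lay outside their range. rno-miR-7a-5p is a neuroendocrine miRNA and rno-miR-1-3p a muscle miRNA.

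Of the 5 nearest neighbours, rno-miR-96-5p had a log2 fold change of -0.02 (95% interval -0.42 to 0.39). For rno-miR-183-5p it was 0.21 (-0.06 to 0.48), and for rno-miR-182 it was also 0.21 (-0.12 to 0.53). These 3 come from the sensory cluster that is known from photoreceptors and hair cells, and on the TMM scale each of the 3 intervals includes 0. rno-miR-26a-5p, a miRNA found in many tissues, was at -0.33 (-0.59 to -0.07, adjusted p = 0.0478), and rno-miR-9a-5p, a neural miRNA, was at 0.43 (0.09 to 0.76, adjusted p = 0.0478), both edgeR and both short of the fold change threshold. With a library left out, the adjusted p-value in edgeR was 0.0569 to 0.105 for rno-miR-26a-5p, and for rno-miR-9a-5p it was 0.0144 without Na2SeO3 library 2 and 0.0615 to 0.205 otherwise. With library size only, rno-miR-182 (0.41, adjusted p = 0.0158), rno-miR-183-5p (0.40, adjusted p = 0.0184), and rno-miR-9a-5p (0.62, adjusted p = 0.00191) passed the adjusted p-value in edgeR. On that scale rno-miR-96-5p (0.20, adjusted p = 0.409) and rno-miR-26a-5p (-0.13, adjusted p = 0.426) did not.

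**Figure D3:**
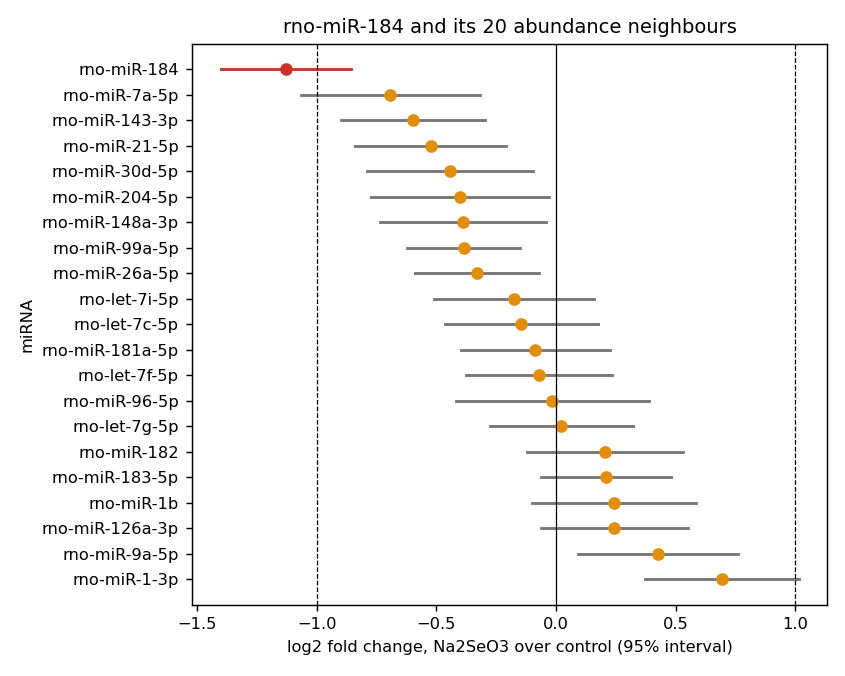
Log2 fold change (Na2SeO3 over control, TMM scaling) with its 95% interval for rno-miR-184 (red) and its 20 abundance neighbours (orange, ordered by value). The point of rno-miR-184, at -1.13, lies to the left of all neighbours, while its interval overlaps those of rno-miR-7a-5p and rno-miR-143-3p.

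**Figure D4:**
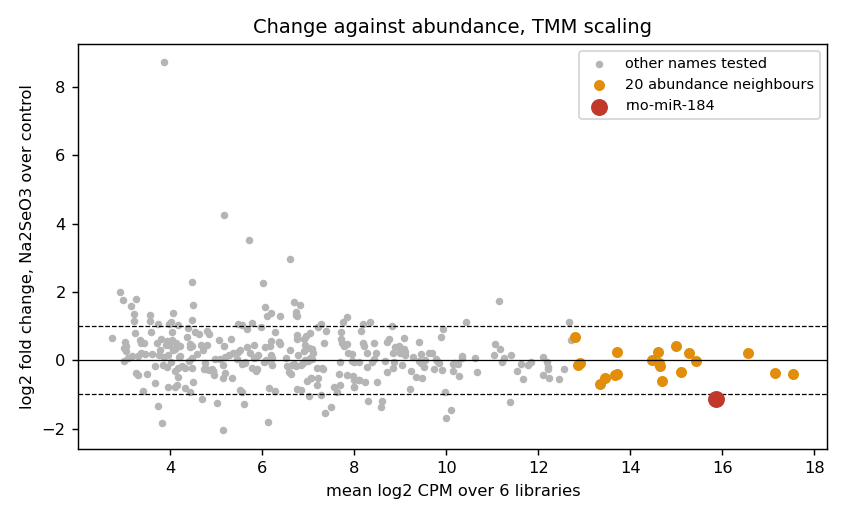
Log2 fold change (Na2SeO3 over control) against mean log2 CPM for the 341 names tested, with rno-miR-184 in red and its 20 abundance neighbours in orange; dashed lines mark a log2 fold change of -1 and 1. rno-miR-184 lies below each of the 20 orange points.

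A ratio of 2 miRNAs in the same library does not depend on the scaling of libraries. The median log2 ratio of miR-184 to its 20 neighbours was 1.71, 1.73, and 1.77 for the controls (replicates 1 to 3) and 0.81, 0.80, and 0.45 after Na2SeO3. The control values were nearly equal and all above the Na2SeO3 values, with means of 1.73 ± 0.03 (SD, n = 3) and 0.69 ± 0.20 (SD, n = 3), a difference of -1.05 (p = 0.1 in a two-sided exact permutation test, again the lowest this design can give). The ratio to each of the 20 neighbours was lower in every Na2SeO3 library than in every control library, and each of the 20 had an exact permutation p = 0.1 (0.1 after Benjamini-Hochberg adjustment over 20). Over the 340 other names tested, 85.6% of such ratios were separated in this way, so the neighbours are not unusual in it. The smallest of the 20 differences was -0.47, to rno-miR-7a-5p, and the largest was -1.83, to rno-miR-1-3p. Between replicates miR-184 varied little, with a coefficient of variation of 8.09% in the control group and 8.57% in the Na2SeO3 group on the TMM scale.

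Among all names tested, 14 had a lower log2 fold change than miR-184, which put it in place 15 of 341. The place was 23 of 375 without Na2SeO3 library 2 and 24 of 378 without Na2SeO3 library 3, and 131 of 725 without the filter on low counts. In the fit with all 6 libraries and the filter, the 14 were all less abundant, and the most abundant of them was rno-miR-203a-3p, with a mean log2 CPM of 11.4. miR-203a-3p is an epithelial miRNA of the skin and eye surface that is known to promote differentiation.

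The miRNAs known from the lens and the eye surface were listed by hand, 20 names besides miR-184, and all 20 were tested. Of these, 2 were called lower (4.99% of all names), none was called higher, and 18 were not called by edgeR's quasi-likelihood test. At an unadjusted p-value of 0.05 alone 10 were lower and none was higher, against 18.8% and 25.5% of all names. DESeq2 called 2 lower, and 4.69% of all names. In 11 of the 20 all control libraries were above all Na2SeO3 libraries, as in 21.1% of all names. At an adjusted p-value of 0.05 without the fold change threshold 8 were lower, against 13.8% of all names. Their median log2 fold change was -0.36, against 0.08 over all names tested. The value was negative for 17 of the 20, against 154 of the 341 names tested. It was positive for rno-miR-182 and rno-miR-183-5p (both 0.21) and for rno-let-7b-5p (0.06), and rno-miR-96-5p was at -0.02. Several names on the list, rno-miR-182, rno-miR-183-5p, and rno-miR-96-5p among them, are also abundance neighbours, so the sets overlap.

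The names called were rno-miR-203a-3p and rno-miR-200b-3p, both miRNAs of epithelial cells. Reads of miR-203a-3p numbered 11250, 7397, and 5390 in the controls (replicates 1 to 3) and 1130, 1698, and 1495 after Na2SeO3. Its level was 3733 ± 215 CPM (SD, n = 3) in the controls and 1610 ± 59.7 CPM (SD, n = 3) after Na2SeO3, and the fitted log2 fold change was -1.21 (95% interval -1.53 to -0.90, adjusted p = 4.86e-05, edgeR). miR-200b-3p, which represses the transcription factors ZEB1 and ZEB2 and so maintains the epithelial state, was counted 4098, 3164, and 2762 times in the control and 427, 678, and 483 times in the Na2SeO3 libraries. Its log2 fold change was -1.45 (95% interval -1.80 to -1.10). In both, every control library was above every Na2SeO3 library. The other members of the miR-200 family on the list were not called. Of these, rno-miR-200c-3p (log2 fold change -0.78, adjusted p = 0.00506) and rno-miR-429 (-0.84, adjusted p = 0.00439) passed the adjusted p-value in edgeR but not the fold change threshold. The value of rno-miR-141-3p, with 2 to 8 reads in a Na2SeO3 library, was -0.91 (adjusted p = 0.155, edgeR). Outside the list, and looked up after the values were seen, rno-miR-200a-3p (log2 fold change -1.19, adjusted p = 0.000153) and rno-miR-200a-5p (-1.06, adjusted p = 0.00274) were also called lower by edgeR. Elsewhere on the list, rno-miR-204-5p, a miRNA of lens and eye development, was at -0.40 (adjusted p = 0.0869, edgeR), and its relative rno-miR-211-5p was at -0.19 (adjusted p = 0.373, edgeR).

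miR-205 was compared with miR-184 directly because of the known interference between them. Its reads numbered 3745, 2612, and 2005 in the controls (replicates 1 to 3) and 420, 937, and 548 after Na2SeO3. The level of miR-205 was 1314 ± 32.0 CPM (SD, n = 3) in the controls and 688 ± 141 CPM (SD, n = 3) after Na2SeO3, and the fitted log2 fold change was -0.93 (95% interval -1.30 to -0.56, adjusted p = 0.00122, edgeR), short of the fold change threshold, which it passed without Na2SeO3 library 2 (-1.11), with upper quartile scaling (-1.02), without the filter on low counts (-1.01), and per raw read (-2.07). The count of miR-184 was 57.1, 63.4, and 65.3 times that of miR-205 in the control libraries and 66.8, 42.4, and 57.8 times in the Na2SeO3 libraries. These ratios overlapped between the groups. On the log2 scale the means were 5.95 ± 0.10 and 5.77 ± 0.34 (SD, n = 3 each), a difference of -0.18 (two-sided exact permutation test, p = 0.7), and the direction rested on Na2SeO3 library 2, without which the difference was 0.0057. With 3 libraries a group this does not show that the ratio was equal.

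**Figure D5:**
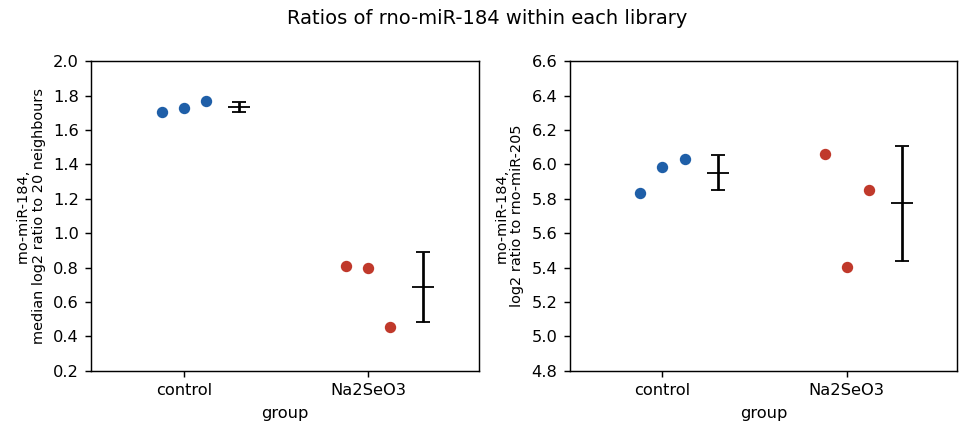
Log2 ratio of rno-miR-184 within each library, as the median over its 20 abundance neighbours (left) and to rno-miR-205 (right), with 1 point per library, the group mean and SD (n = 3) as a black bar, and the same length of axis in both panels. On the left the groups are separated, with means of 1.73 and 0.69, and on the right they overlap, with means of 5.95 and 5.77.

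The names whose log2 CPM over the 6 libraries was most like that of miR-184 were rno-miR-200b-3p (Pearson's r = 0.994), rno-miR-26a-5p (0.983), rno-miR-200c-3p (0.978), rno-miR-203a-3p (0.977), and rno-miR-145-5p (0.975). In all, 31 of 340 names had an r above 0.9, all of them lower in the Na2SeO3 group. This is a description over 6 libraries that share their groups and depth, and it is set mainly by the difference between the groups.

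Markers of several other cell types differed between the groups in their summed share of counted reads. The share of 4 neural miRNAs was 3.04% to 3.21% in the control and 4.20% to 4.84% in the Na2SeO3 libraries, that of 4 muscle miRNAs was 0.632% to 0.759% and 1.44% to 1.47%, and that of 2 endothelial miRNAs was 1.92% to 2.30% and 2.71% to 3.16%. The 4 erythroid miRNAs took 0.0219% to 0.0285% and 0.0418% to 0.0537%, and the 3 oligodendrocyte miRNAs 0.00251% to 0.00286% and 0.00889% to 0.0107%. These 5 lists were higher in every Na2SeO3 library, the 4 smooth muscle and mesenchymal miRNAs were lower (3.32% to 3.80% and 2.42% to 3.12%), and the 4 leukocyte miRNAs overlapped (0.0125% to 0.0159% and 0.0107% to 0.0165%). The sums do not stand for each member or for the TMM scale. On that scale 0 of the 4 neural and 0 of the 2 endothelial miRNAs had all Na2SeO3 libraries above all control libraries. All 4 muscle miRNAs did, and so did 1 of the 3 erythroid miRNAs tested, against 86 of all 341 names tested. Of the erythroid miRNAs tested, rno-miR-486 had a log2 fold change of 1.12, rno-miR-144-5p one of 0.41, and rno-miR-451-5p one of 0.06. Of the oligodendrocyte miRNAs tested, rno-miR-219a-2-3p had a log2 fold change of 4.26 and rno-miR-338-3p one of -0.93 (adjusted p = 0.0519, edgeR). Of the 4 smooth muscle and mesenchymal miRNAs 2 had a negative value. Of these 25 names, 23 were tested, of which 3 were called higher, where 11.4% of all names were, and none was called lower, where 4.99% were. No marker was at 0 in all libraries. Their part in the fall of miR-184 was not tested. In bulk tissue, fewer cells that hold miR-184 and less miR-184 per cell cannot be told apart.

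The base composition of miR-184 differed from that of its neighbours. Its GC content was 50.0%, and the 18 neighbours with a mature sequence ranged from 27.3% to 48.0%. Across the 296 names tested with a mature sequence, GC content and log2 fold change correlated at r = 0.11, a description over names that share the same libraries. Among the 125 other names within 5 percentage points of the GC content of miR-184, the median log2 fold change was 0.06, and 4 had a lower value than miR-184.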

How the data were processed

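Small RNA of 3 control and 3 Na2SeO3 lenses was sequenced, and groups and numbers follow the sample titles. For its sequencing data the study names miRDeep and HISAT2 for the comparison with the Ensembl genome. FastQC is named for quality, and Cutadapt and Fqtrim for filtering. Counts per miRNA name were deposited without normalization. Versions and build are not given in the sources used here.

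Counts were used as deposited. Names were filtered with filterByExpr (minimum count 10), which left 341, and compared with edgeR 4.0.16 (TMM, quasi-likelihood test, Benjamini-Hochberg adjustment, thresholds as in the study) in R 4.3.3. DESeq2 1.42.0, limma 3.58.1, other scalings, filters, and library sets were alternatives. Log2 CPM used a prior count of 2 and ratios a pseudocount of 0.5. Standard errors were derived from the F statistics. The structure was predicted with ViennaRNA 2.7.2. The procedure was tested on simulated data. Pairs of libraries differed beyond sampling noise (chi-square at least 27.9 times its degrees of freedom). Replicates are separate animals.

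miR-184 and all lists were chosen with earlier results of these data known. Named were the 5 nearest neighbours and those with the largest changes, the lens and eye-surface list, and the 5 most alike names. The mRNA libraries are not analysed here.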

Additional observations from a re-analysis of the deposited data

How the results depend on the processing

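The log2 fold change of miR-184 was negative in all 19 other fits, and no neighbour lay below it in any of them. Fits that differ only in scaling shift all names nearly alike, and glmTreat keeps the same fold changes. In those fits the order against the neighbours could hardly change. miR-184 did not reach an absolute log2 fold change of 1 when scaled by library size only (-0.93) or with its own reads left out of the library size (-0.99). At -1.13 it did not pass glmTreat's test against 1 (adjusted p = 0.565). The cause was not tested. Leaving out each library in turn gave -1.23 to -1.08 (adjusted p of 2.69e-05 to 0.00226, edgeR). Names called lower numbered 10 with library size only (53 higher), 22 with upper quartile (32 higher), 176 with raw reads (6 higher), and 3 in glmTreat (6 higher), against 17 (39 higher), and 12 to 20 with a library left out. With raw reads 14 of the 20 neighbours and 18 of the 20 lens and eye-surface names were called lower, and glmTreat called 0 of the latter. Upper quartile scaling and the fit with no filter each called 3 of the latter lower, beside 6.45% and 2.34% of all names tested. With a library left out, 0 of the neighbours and 2 to 3 of the lens and eye-surface names were called lower. The difference in share was -1.84 points of raw reads and -4.08 as a percentage of the other counted reads, and -3.79 to -3.42 with a library left out. The ratio to the neighbours differed by -1.11 to -0.93 and that to miR-205 by -0.32 to 0.0057 with a library left out. Replicate numbers are shared between groups, but same-numbered libraries come from different animals and their deviations correlated at -0.17, -0.18, and -0.26, so the numbers do not pair them. With the replicate block the log2 fold change of miR-184 was -1.13 (adjusted p = 0.000454, edgeR), 0 neighbours, 2 lens and eye-surface names, and 16 names in all were called lower, and no call on miR-184 changed.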
